A study of Rattus norvegicus with 99 samples.

Results

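Genes for ion channels whose currents are mostly lost from working ventricular muscle after birth were followed across rat hearts under pressure load. Cacna1g and Cacna1h encode pore-forming subunits of T-type calcium channels, and Hcn2 and Hcn4 encode pacemaker channels. They were chosen by gene symbol, as 4 of the 17337 genes of the whole-heart table, and each had counts in all 99 libraries. The rats were male F1 animals of Wistar Kyoto mothers and Lewis fathers, and 33 hearts were each divided into left ventricle (LV), septum (Spt) and right ventricle (RV). Pulmonary artery banding (PAB) loads the RV and aortic banding (AOB) loads the LV. Ages are those of the labels, and the study's methods put surgery and sampling at older ages. At the compensated stage, at 11 weeks of age and 7 weeks after surgery, there were 7 sham-operated (Sham-H), 7 PAB (PAB-H) and 7 AOB (AOB-H) animals. At the failure stage there were 3 PAB animals (PAB-F) and 2 shams (Sham-RF), at 27 weeks of age and 21 weeks after surgery, and 4 AOB animals (AOB-F) and 3 shams (Sham-LF), at 30 weeks of age and 24 weeks after surgery. The labels name no engineered allele, and every library was made from whole tissue, so that in these bulk samples fewer cells of a type and less RNA per cell cannot be told apart.

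T-type calcium channels open at more negative voltages than the L-type channels that trigger contraction, and in the adult heart they are best known from the sinoatrial node and the conduction system, where they help to set the beat. HCN channels open when the membrane becomes more negative, carry the inward funny current and are gated directly by cyclic AMP, and HCN4 is the main form of the node. Working ventricular muscle carries both channel types before birth and loses most of the currents afterwards, and their return in the overloaded ventricle is a known part of the fetal gene programme, beside natriuretic peptides such as that of Nppa.

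The libraries held between 12057180 and 24197244 counts, with a median of 17391374. In 3 animals (Sham-H replicate 6, PAB-H replicate 2 and AOB-H replicate 1) the genes that separated RV from LV in the other hearts ran in the opposite direction, whereas in 30 animals they ran in the common direction. The values of the ventricles that use these animals were therefore also computed without them. Library numbers in the labels fell into 3 series. At the failure stage all LV and RV libraries were of one series and all Spt libraries of another, so that a difference between Spt and the ventricles there cannot be told apart from the series. Among the AOB-F animals the libraries highest in Nppa were replicates 1 and 4 in the LV and in the RV but replicates 1 and 3 in the Spt. The replicate numbers of the Spt libraries thus did not match those of the ventricles in this respect. Comparisons within the Spt do not use that link. The fits below with the animal as a block hold all 99 libraries and do use it. Markers of the ventricular cardiomyocyte were abundant in all groups, with summed levels of Myh6, Myl2, Tnni3, Tnnt2 and Actn2 between 32000 CPM (counts scaled to a common library total) in the lowest AOB-F LV library and 73500 CPM in the highest Sham-LF RV library of the failure-stage groups.

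Per transcript length, Hcn2 was by far the most abundant of the channel genes. On the deposited FPKM scale, which divides by length, the median over the 36 sham libraries was 50.1 for Hcn2, 1.65 for Hcn4, 1.43 for Cacna1h and 1.14 for Cacna1g. The Hcn2 level exceeded that of each of the other members in 99 of 99 libraries. Hcn4 exceeded Cacna1h in 71 of 99 libraries, so the order of these lower members was not fixed. The lowest count in any library was 520 for Hcn2, 68 for Cacna1g, 65 for Cacna1h and 18 for Hcn4. Related genes were barely counted: Hcn3 reached at most 4 counts and Cacna1i, the third T-type gene, at most 5 counts in any library. The levels below are in CPM scaled by TMM and compare one gene between samples.

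**Figure D1:**
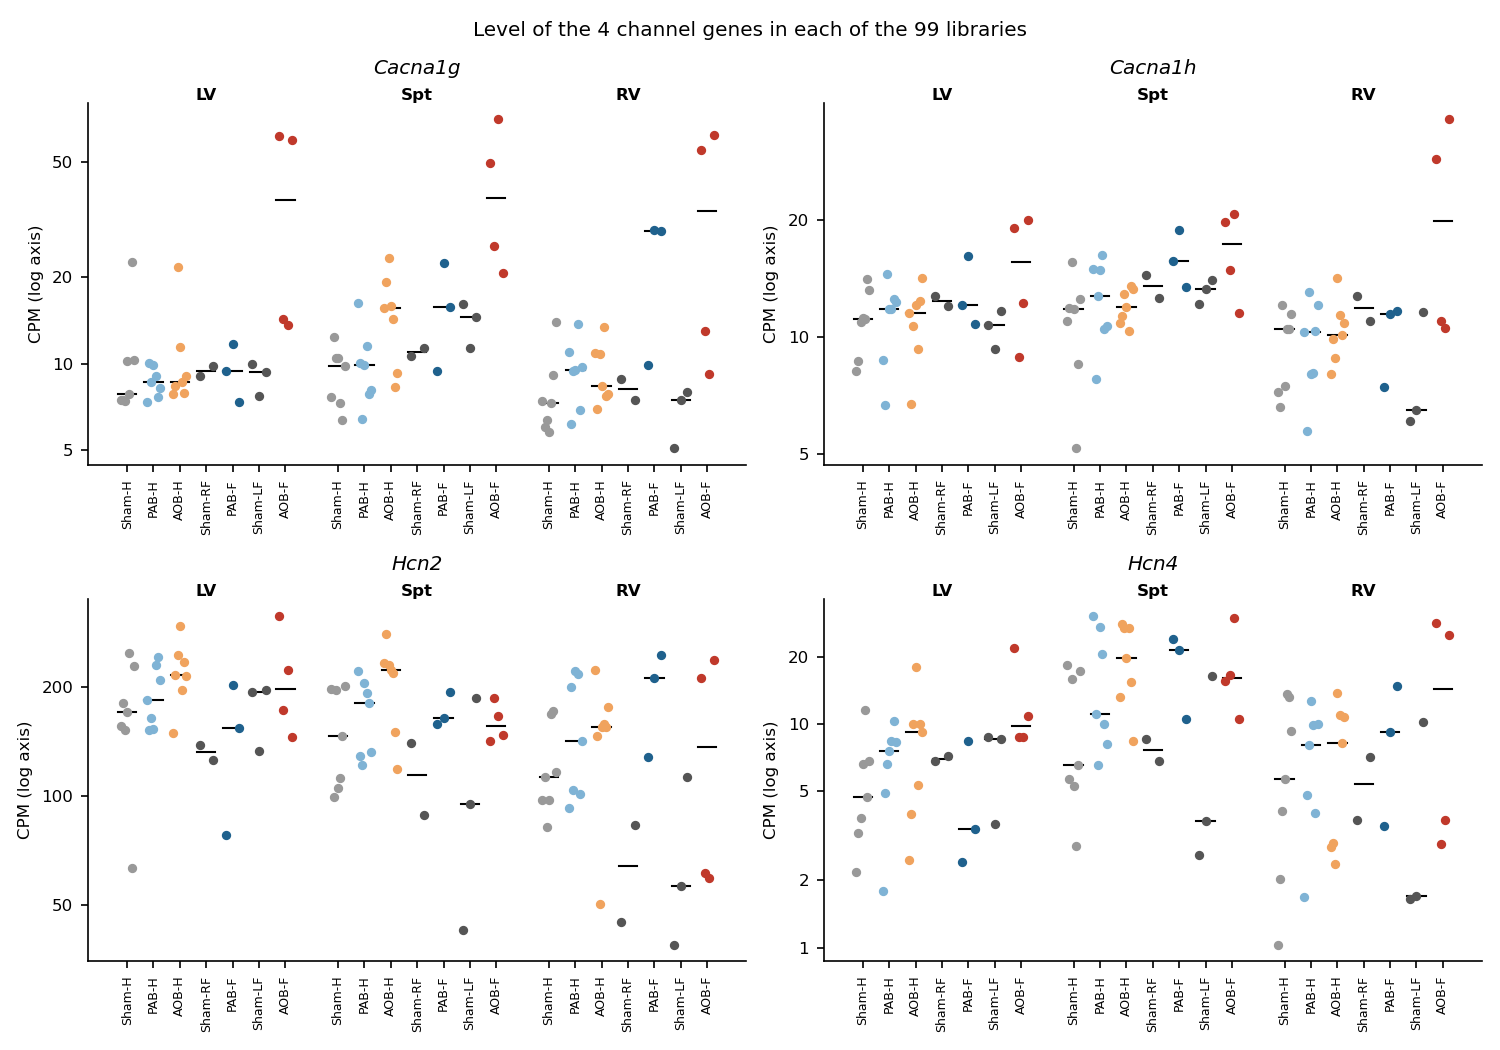
CPM of Cacna1g, Cacna1h, Hcn2 and Hcn4 (vertical, log axes) in each library, by chamber and group, with a bar at the group median. The AOB-F libraries of Cacna1g lie above their shams in all 3 chambers but spread from 13.6 to 61.6 CPM in the LV, and the Hcn2 panel shows the low RV level of the older shams.

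The order of the groups differed from gene to gene. For Cacna1g the 4 highest of the 21 group medians were those of AOB-F in the Spt (37.5 CPM), the LV (37.0 CPM) and the RV (33.9 CPM) and of PAB-F in the RV (28.9 CPM), and these overlapped with one another in range. The next were PAB-F in the Spt (15.7 CPM), AOB-H in the Spt (15.6 CPM) and Sham-LF in the Spt (14.6 CPM), and the remaining 14 group medians lay between 7.31 and 11.0 CPM. For Cacna1h the range was narrower, from a median of 6.48 CPM in the RV of Sham-LF to 19.9 CPM in the RV of AOB-F. For Hcn2 the highest medians were those of AOB-H in the Spt (222.9 CPM) and the LV (216.1 CPM) and of PAB-F in the RV (211.9 CPM), and the lowest were the RV of Sham-RF (64.0 CPM) and of Sham-LF (56.6 CPM). For Hcn4 the medians ran from 1.70 CPM in the RV of Sham-LF to 21.4 CPM in the Spt of PAB-F, with ranges that overlapped between most neighbours.

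The first question was which channel genes differed between failing LV and sham after aortic banding. Cacna1g, which encodes the Cav3.1 pore, rose 4.12-fold in the LV of AOB-F animals and was the only one of the 4 members to pass the test there. Its levels were 61.6, 14.3, 13.6 and 59.8 CPM in AOB-F replicates 1 to 4 against 9.97, 7.74 and 9.37 CPM in Sham-LF. Every AOB-F library lay above every sham library, but replicates 2 and 3 were only slightly higher than the shams, whereas replicates 1 and 4 were several-fold higher. The log2 fold change was 2.04 ± 0.45 (SE; n = 4 and 3), with an adjusted p of 0.0338 in edgeR's quasi-likelihood test. Of all 11703 genes tested in the LV, 98 (0.837%) passed the adjusted threshold of 0.05, and 5.91% had every AOB-F library above every sham library, as 1 of the 4 members did. The Cacna1g call was lost when any of 5 of the 7 animals was left out: without replicate 1 the log2 fold change was 1.69 (adjusted p = 0.218), without replicate 4 it was 1.72 (adjusted p = 0.208), and leaving out any single sham also ended the call, with adjusted p from 0.155 to 0.18.

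The other T-type gene moved less in the LV. Cacna1h, which encodes Cav3.2, stood at 19.1, 8.85, 12.2 and 20.0 CPM in AOB-F against 10.8, 9.29 and 11.7 CPM in Sham-LF, so the groups overlapped, and its log2 fold change of 0.50 ± 0.26 did not pass (adjusted p = 0.422). The 2 AOB-F libraries above the shams by the widest margin were again replicates 1 and 4. Hcn2 had 314.1, 172.0, 223.0 and 144.9 CPM in AOB-F against 193.6, 132.9 and 196.0 CPM in Sham-LF. These ranges overlapped, and replicate 4, which was high in Cacna1g, had the lowest Hcn2 level of the AOB-F libraries (log2 fold change 0.29 ± 0.32, adjusted p = 0.854; 0.047 to 0.44 when single animals were left out). Hcn4 had 21.9, 8.73, 8.72 and 10.9 CPM in AOB-F against 8.80, 3.59 and 8.54 CPM in Sham-LF (log2 fold change 0.84 ± 0.57, adjusted p = 0.63; 0.43 to 1.04 when single animals were left out), with replicates 2 and 3 inside the range of the shams. At an unadjusted p under 0.05, 1 of the 4 members differed in the LV, beside 12.7% of all genes tested.

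The RV of the same AOB-F animals lies behind the failing LV and is not the chamber the band loads directly, and there Cacna1g had the smallest p of all 11734 genes tested, although no gene passed the adjusted threshold (0%). The levels were 54.9, 13.0, 9.23 and 62.0 CPM in AOB-F replicates 1 to 4 against 5.09, 7.45 and 8.00 CPM in Sham-LF. The groups did not overlap, which was true of 5.33% of genes in this direction, and the same replicates 1 and 4 as in the LV were high. The log2 fold change was 2.34 ± 0.48 (unadjusted p = 3.94e-05, adjusted p = 0.328). The adjusted p was 0.0164 when all 99 libraries shared the estimate of the spread and 0.0336 with the library series as a covariate. It was 0.00114 in DESeq2's Wald test, which called 3 genes in this comparison. Over all alternatives, those leaving out single animals among them, 0 to 76 genes were called here. The fit of all 99 libraries held no term for the animal, although each animal gave a library from every chamber.

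Cacna1h was sixth of all genes by p in the RV of AOB-F animals. It had 28.8, 11.0, 10.5 and 36.5 CPM in AOB-F against 6.06, 6.48 and 11.6 CPM in Sham-LF. Replicates 1 and 4 stood above all shams, and replicates 2 and 3 fell below the highest sham, so the ranges overlapped. Its log2 fold change was 1.42 ± 0.35 (unadjusted p = 0.000312, adjusted p = 0.328). The adjusted p was 0.0233 in the fit of all 99 libraries, which treated libraries of the same animal as separate. At an unadjusted p under 0.05, 3 of the 4 members were higher in this comparison, beside 12.9% of all genes in either direction.

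Both HCN genes had the same pattern of replicates in the RV of AOB-F animals. Hcn2 stood at 211.7, 61.3, 59.5 and 236.5 CPM in AOB-F against 38.9, 56.6 and 112.7 CPM in Sham-LF, with a log2 fold change of 1.03 ± 0.47 (unadjusted p = 0.036, adjusted p = 0.367). Hcn4 stood at 28.3, 2.91, 3.71 and 25.0 CPM against 1.65, 1.70 and 10.2 CPM (log2 fold change 1.70 ± 0.87, unadjusted p = 0.0611, adjusted p = 0.398). In both genes replicates 1 and 4 were above all shams, while replicates 2 and 3 fell between the highest and the lowest sham. Sham-LF replicate 3 was the highest sham in both. Without it the log2 fold change of Hcn4 was 3.14 (adjusted p = 0.183) and that of Hcn2 was 1.56 (adjusted p = 0.183). These were the upper ends when single animals were left out, and the lower ends were 1.17 for Hcn4 and 0.66 for Hcn2.

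In the Spt, which both ventricles share, Cacna1g of AOB-F animals stood at 49.5, 25.6, 70.4 and 20.6 CPM against 16.0, 11.3 and 14.6 CPM in Sham-LF. All AOB-F libraries lay above all shams, as for 5.26% of genes. The log2 fold change of 1.56 ± 0.36 missed the threshold in the edgeR fit of the chamber (adjusted p = 0.0554), and it passed with DESeq2's size factors in that fit (adjusted p = 0.0471), without a filter on low counts (adjusted p = 0.0422) and in DESeq2's Wald test (adjusted p = 0.00298). Of 11624 genes tested in the Spt, 27 (0.232%) passed with TMM scaling, and none of them was a member. Over all alternatives, those leaving out single animals among them, 0 to 234 genes were called in this comparison.

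Hcn4 in the Spt of AOB-F animals had 15.6, 16.5, 30.0 and 10.5 CPM against 2.61, 3.68 and 16.4 CPM in Sham-LF, with a log2 fold change of 1.23 ± 0.62 (unadjusted p = 0.0555, adjusted p = 0.426). The overlap came from Sham-LF replicate 3, without which the log2 fold change was 2.54 (adjusted p = 0.107). Leaving out single animals gave 0.82 to 2.54. Hcn2 had 142.0, 186.6, 165.7 and 146.8 CPM against 42.7, 95.0 and 186.4 CPM. The overlap in Hcn2 came from the same sham, and the log2 fold change was 0.57 ± 0.33 with it and 1.23 (adjusted p = 0.0952) without it. The lowest value when single animals were left out was 0.19. Cacna1h had 19.8, 14.9, 20.8 and 11.6 CPM against 12.2, 13.3 and 14.1 CPM, with ranges that overlapped and a log2 fold change of 0.34 ± 0.24 (adjusted p = 0.61). At an unadjusted p under 0.05, Cacna1g alone of the 4 members differed in the Spt, beside 12.2% of all genes.

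**Figure D2:**
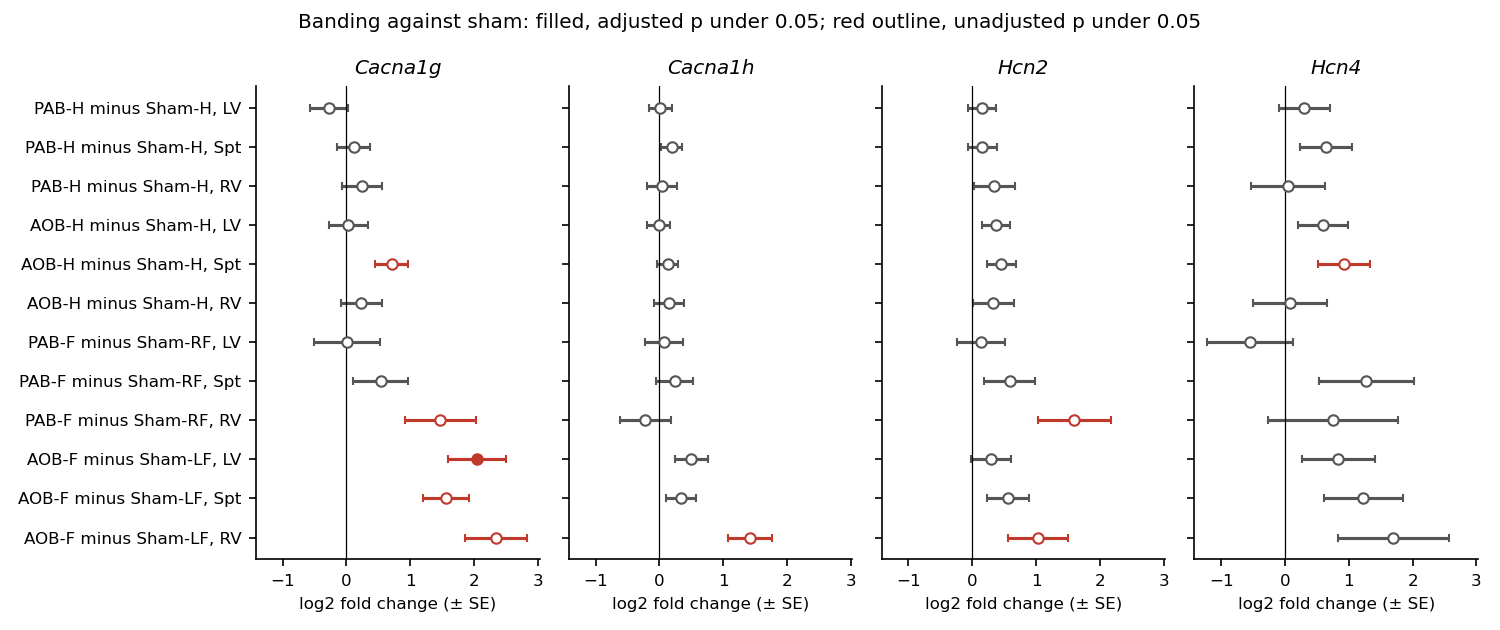
Log2 fold change (horizontal) with its standard error for each member in the 12 comparisons of banding against sham. Cacna1g in the LV of AOB-F is the only filled point (adjusted p = 0.0338), and the Cacna1g values of AOB-F in all 3 chambers and of PAB-F in the RV lie between 1.48 and 2.34.

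In right heart failure the question was the same for the RV after PAB. No gene passed the adjusted threshold there (0% of 11734), with 3 PAB-F animals and 2 shams, and DESeq2's Wald test called 1 gene, which was no member. Cacna1g had 9.91, 29.0 and 28.9 CPM in PAB-F replicates 1 to 3 against 8.85 and 7.45 CPM in Sham-RF. Replicates 2 and 3 were several-fold above the shams and replicate 1 was barely above them (log2 fold change 1.48 ± 0.56, unadjusted p = 0.0138, adjusted p = 0.524). Hcn2 had 127.7, 211.9 and 244.0 CPM in PAB-F against 45.0 and 83.0 CPM in Sham-RF, with all 3 banded libraries above both shams. Its log2 fold change was 1.60 ± 0.58 (unadjusted p = 0.00951, adjusted p = 0.524), the largest of Hcn2 in any comparison of banding against sham. Groups this small are often apart: 16.9% of all genes had every PAB-F library above every sham, as 2 of the 4 members did, and 8.37% of all genes had an unadjusted p under 0.05, as the same 2 members did.

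Cacna1h did not follow Cacna1g in the RV of PAB-F animals. It had 7.43, 11.4 and 11.6 CPM against 12.8 and 11.0 CPM in Sham-RF (log2 fold change -0.22 ± 0.40, adjusted p = 0.881). Hcn4 had 3.51, 9.20 and 14.8 CPM against 3.73 and 7.10 CPM, with overlapping ranges (log2 fold change 0.76 ± 1.02, adjusted p = 0.838). The LV of PAB-F animals showed no such levels of Cacna1g (9.39, 11.7 and 7.33 CPM against 9.07 and 9.81 CPM). In the 8 tests of members in the LV and the Spt of PAB-F animals no adjusted p was below 0.816, and no gene passed in the edgeR or DESeq2 fits of each chamber over all 7 conditions (0% in each chamber; 122 and 481 genes had an unadjusted p under 0.05). The widest gap there was in Hcn4 of the Spt, at 24.1, 21.4 and 10.5 CPM against 8.57 and 6.82 CPM, with a log2 fold change of 1.27 ± 0.74. All 3 banded libraries lay above both shams, as for 21.4% of genes. In an edgeR fit of these 2 groups alone Hcn4 passed (adjusted p = 0.0352), as did 7.1% of 11154 genes. Of 10 markers of nodal and conduction tissue tested in the Spt fit, 6 had a log2 fold change above 0 in PAB-F against Sham-RF. Their summed level was 110 to 124 CPM against 124 CPM. Among them only Cntn2, a marker of the conduction system, had an unadjusted p under 0.05 (0.99 ± 0.48, unadjusted p = 0.0478). In the LV of the same animals Cntn2 had 0.88 ± 0.41 (unadjusted p = 0.0379) and Hcn4 had -0.55 ± 0.67. The part of conduction tissue in the Hcn4 value of the Spt was not tested.

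The design also allowed a test of whether the responses differed between chambers. In AOB-F animals the response of Cacna1g in the LV minus that in the RV was -0.30 ± 0.61 on the log2 scale (adjusted p = 0.935), and -0.26 ± 0.54 (adjusted p = 0.881) with the animal as a block. Cacna1h differed most between the chambers, by -0.91 ± 0.41 (unadjusted p = 0.029, adjusted p = 0.926), that is, a larger value in the RV than in the LV, and by -0.89 ± 0.36 with the block (adjusted p = 0.793). In PAB-F animals the response in the RV minus that in the LV was 1.48 ± 0.74 for Cacna1g (unadjusted p = 0.0483) and 1.47 ± 0.66 for Hcn2 (unadjusted p = 0.0275), and neither passed the adjusted threshold (adjusted p = 0.999 and 0.988; 0.665 and 0.633 with the block). Set against each other, the LV response to AOB and the RV response to PAB differed by 0.56 ± 0.67 for Cacna1g (adjusted p = 0.954) and by -1.31 ± 0.61 for Hcn2 (unadjusted p = 0.0339, adjusted p = 0.855), the latter being larger in the RV. No gene passed in any of these 3 edgeR tests (0% of 11924), where 286, 583 and 668 genes had an unadjusted p under 0.05, and DESeq2's Wald test called 0, 1 and 0 genes.

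Within single AOB-F hearts the ventricles were alike in Cacna1g. In PAB-F replicates 2 and 3 they were not, at 11.7 and 7.33 CPM in the LV against 29.0 and 28.9 CPM in the RV. The pairs of LV and RV levels of the AOB-F animals were 61.6 and 54.9 CPM, 14.3 and 13.0 CPM, 13.6 and 9.23 CPM, and 59.8 and 62.0 CPM. The animals were thus split in the same way in both chambers, and their failure-stage group means carry that split. Nppa, the atrial natriuretic peptide gene, which adult ventricles re-express under load, showed it too: its LV levels were 17500, 3710, 2180 and 16100 CPM in replicates 1 to 4. Among the 36 failure-stage and older sham libraries, the 6 highest in Cacna1g (49.5 CPM or more) were the 6 highest in Nppa (6030 CPM or more). These 6 were the LV and RV of AOB-F replicates 1 and 4 and the Spt of replicates 1 and 3, so they shared animals. How many other genes had the same 6 highest libraries was not computed. The next were the RV libraries of PAB-F replicates 2 and 3, at 29.0 and 28.9 CPM of Cacna1g and 5720 and 5310 CPM of Nppa.

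**Figure D3:**
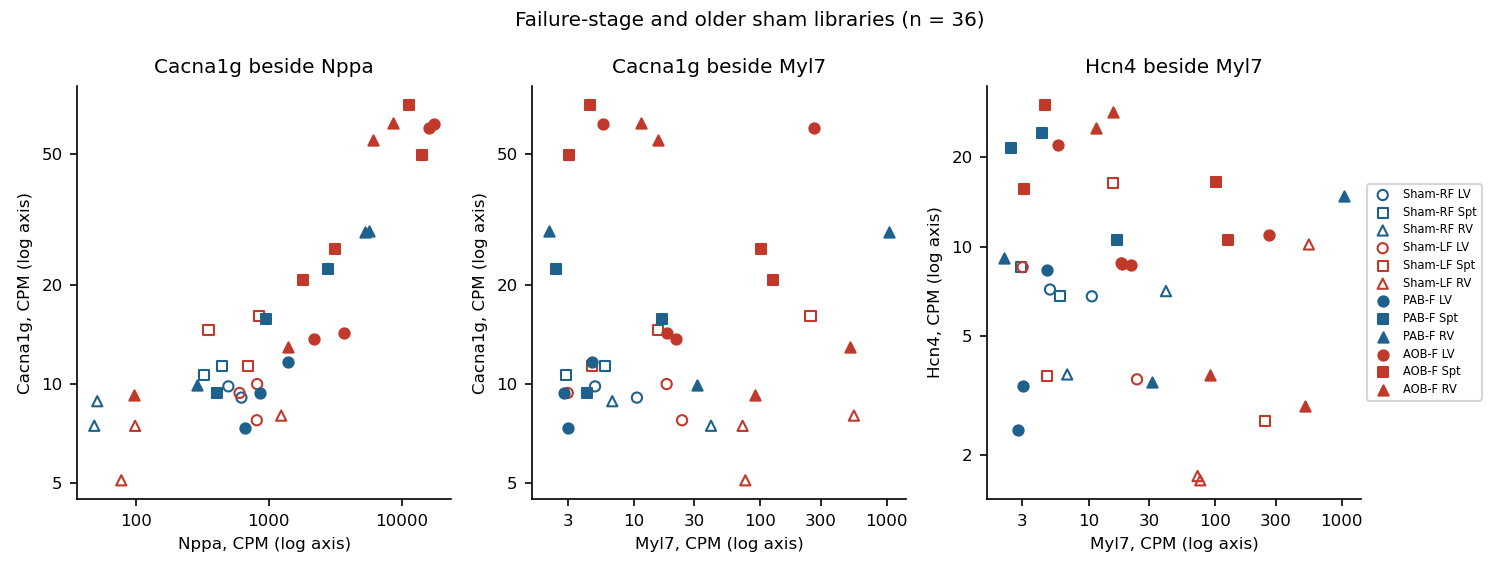
Cacna1g or Hcn4 (vertical) beside Nppa or the atrial marker Myl7 (horizontal), in CPM on log axes, for the 36 failure-stage and older sham libraries; filled symbols are banded, open symbols are shams, and the shape gives the chamber. Libraries high in Cacna1g are high in Nppa. The library highest in Myl7 (PAB-F RV replicate 3) has 28.9 CPM of Cacna1g and is among the 8 highest in it. Of the 6 libraries with 49.5 CPM or more of Cacna1g, all but LV replicate 4 of AOB-F have 15.6 CPM of Myl7 or less.

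Because atria and nodes carry these channels, markers of both were measured beside the members. Of the atrial list (Myl7, Sln, Kcna5, Kcnj3, Bmp10 and Myl4), 6 of 6 were tested and 0 of 6 passed in any failure-stage comparison with sham in the LV, the Spt or the RV. The summed atrial level in the RV was 40.7, 68.6 and 1900 CPM at the lowest, the median and the highest of PAB-F against 34.5 to 71.4 CPM in Sham-RF, and 57.4 to 846 CPM in AOB-F against 97.9 to 968 CPM in Sham-LF. The high values belonged to single libraries: PAB-F replicate 3 (Sln at 305 CPM and Bmp10 at 78.8 CPM), AOB-F replicate 2 (Myl7 at 511 CPM) and Sham-LF replicate 3 (Myl7 at 549 CPM). Of these libraries, PAB-F replicate 3 had the highest Hcn2 and Hcn4 of its group, and Sham-LF replicate 3 had the highest level of all 4 members among its shams, whereas AOB-F replicate 2 was the lowest or next to the lowest of its group in all 4.

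Without PAB-F replicate 3 the RV log2 fold change was 1.41 for Hcn2 (adjusted p = 0.977), 1.27 for Cacna1g (adjusted p = 0.977) and 0.23 for Hcn4 (adjusted p = 0.991). Replicates 1 and 4 of the RV of AOB-F, which held the high channel levels, had Myl7 at 15.6 and 11.5 CPM, below the 72.5 to 549 CPM of Sham-LF. In the LV one of the 2 libraries high in Cacna1g, AOB-F replicate 4, had Myl7 at 268 CPM, and the other, replicate 1, had 5.74 CPM. The part of atrial tissue in the Hcn2 and Hcn4 values of the RV was not tested.

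Of the 11 listed markers of nodal and conduction tissue, 10 were tested and 0 passed in any of these comparisons. Their summed level in the RV was 106 to 122 CPM in AOB-F against 111 to 128 CPM in Sham-LF, and 93.0 to 106 CPM in PAB-F against 116 to 140 CPM in Sham-RF. Of the defining nodal factors, Isl1 had no count in 96 of 99 libraries and Shox2 reached at most 34 counts, whereas Tbx3 and Tbx18 had counts in every library, up to 247 and 241. In the RV of PAB-F, Irx3 and Etv1 were lower at an unadjusted p under 0.05. Smooth muscle markers, whose cells also carry T-type channels, summed to 284 to 461 CPM in the RV of AOB-F against 376 to 425 CPM in Sham-LF, and 0 of 5 passed. For neurons and Schwann cells 4 markers were tested and 0 passed, with sums of 25.2 to 54.7 CPM against 41.1 to 50.9 CPM in the same groups. Likewise 0 of 5 fibroblast, 0 of 4 endothelial and 0 of 3 macrophage markers passed in the 3 chambers of AOB-F or in the RV of PAB-F; in the LV of AOB-F 3 fibroblast markers, 2 macrophage markers and the neuronal Tubb3 were higher at an unadjusted p under 0.05. Of the 5 ventricular cardiomyocyte markers 0 passed, and their sum in the LV was 32000 to 46200 CPM in AOB-F against 47700 to 60600 CPM in Sham-LF, with Myh6 and Tnni3 lower at an unadjusted p under 0.05. The part of these shifts in the Cacna1g value of the LV was not tested.

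At the compensated stage no channel gene passed in either banding or any chamber. The 24 log2 fold changes against Sham-H lay between -0.27 and 0.92, the lowest adjusted p was 0.235, and no gene of the tables passed in any of these edgeR comparisons (0% in each). At an unadjusted p under 0.05 there were between 110 genes (AOB-H RV) and 1851 genes (AOB-H Spt), and DESeq2's Wald test called 14 genes in the AOB-H Spt and 0 in the other 5 comparisons. Both members' values with an unadjusted p under 0.05 were in the Spt of AOB-H. Cacna1g there had 8.27, 15.6 and 23.2 CPM at the lowest, the median and the highest of 7 animals against 6.39, 9.84 and 12.4 CPM in Sham-H. The medians were apart and the ranges overlapped (log2 fold change 0.71 ± 0.25, unadjusted p = 0.00848, adjusted p = 0.235). Within the library series the log2 fold change was 0.99 in the 2 against 2 animals of one and 0.62 in the 5 against 5 of the other.

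Hcn4 in the Spt of AOB-H animals had 8.44, 19.8 and 28.1 CPM at the lowest, the median and the highest against 2.86, 6.58 and 18.3 CPM in Sham-H (log2 fold change 0.92 ± 0.41, unadjusted p = 0.0315, adjusted p = 0.28), and 0.90 and 0.95 within the library series. Hcn2 had 118.3, 222.9 and 278.9 CPM against 99.6, 146.3 and 200.4 CPM, again with an overlap (log2 fold change 0.46 ± 0.23, unadjusted p = 0.0527, adjusted p = 0.317), and 0.54 and 0.43 within the series. At an unadjusted p under 0.05 the AOB-H Spt held 2 of the 4 members beside 15.9% of all genes. Markers of other cells also differed there at that level: 3 of 3 macrophage markers were higher, 3 of 5 ventricular cardiomyocyte and 2 of 6 atrial markers were lower, and of the nodal markers Tbx3 was higher (unadjusted p = 0.0472) and Shox2 and Vsnl1 were lower, and none passed the adjusted threshold. Their part in the channel values was not tested. In the LV of AOB-H animals, the chamber the band loads, the lowest, the median and the highest Cacna1g levels were 7.86, 8.61 and 21.7 CPM against 7.39, 7.87 and 22.5 CPM in Sham-H. The ranges overlapped, with a log2 fold change of 0.03 ± 0.30 (adjusted p = 0.992) with all animals. The highest sham (replicate 6) and the lowest AOB-H library (replicate 1) came from animals whose chambers ran in the opposite direction. The next highest levels were 11.4 CPM in AOB-H and 10.3 CPM in Sham-H.

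The responses of the stages were then set against each other. The Cacna1g response to AOB in the LV was larger at failure than at the compensated stage by 2.01 ± 0.54 on the log2 scale (unadjusted p = 0.000758, adjusted p = 0.462), and in the Spt by 0.86 ± 0.43 (unadjusted p = 0.0575, adjusted p = 1). For PAB in the RV the differences were 1.23 ± 0.64 for Cacna1g (unadjusted p = 0.0633) and 1.26 ± 0.65 for Hcn2 (unadjusted p = 0.0615), each with an adjusted p of 1. No gene passed in edgeR or DESeq2 in any of these tests (0%), where 890, 339 and 313 genes had an unadjusted p under 0.05, and stage, age and time since surgery changed together.

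Hcn4 and Cacna1h also varied with the library series at the compensated stage. In the LV the Hcn4 level was 1.79 to 4.94 CPM in the 6 libraries of the first series, 3.79 to 18.0 CPM in the 9 of the second and 4.70 to 10.3 CPM in the 6 of the third. The RV showed the same order of the first series, with 1.03 to 4.80 CPM against 2.37 to 13.8 CPM and 3.99 to 13.3 CPM. Cacna1h in the LV had a median of 8.43 CPM in the first series, 11.2 CPM in the second and 12.9 CPM in the third. Each series held all 3 compensated groups in the ventricles, so this variation added to the spread within groups. Its part in the wide error of Hcn4 was not tested.

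Age and chamber were compared within shams. Hcn2 was the member that differed between ventricles: in the older shams its levels were 45.0 and 83.0 CPM (Sham-RF) and 38.9, 56.6 and 112.7 CPM (Sham-LF) in the RV against 138.5 and 125.8 CPM and 193.6, 132.9 and 196.0 CPM in the LV. Every RV value lay below every LV value, as for 4.78% of genes. The log2 difference, RV minus LV, was -1.14 ± 0.33 (adjusted p = 0.0277), and with the animal as a block it was -1.24 (adjusted p = 0.0149). In this comparison 6.03% of 11924 genes passed, and 1 of the 4 members did. The adjusted p rose above the threshold without either Sham-RF animal or without Sham-LF replicate 1 or 2, up to 0.30.

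In the young shams the Hcn2 levels were 82.3, 112.9 and 171.7 CPM at the lowest, the median and the highest in the RV against 63.2, 170.7 and 247.3 CPM in the LV. The lowest LV value came from replicate 6, one of the animals whose chambers ran in the opposite direction. The log2 difference was -0.45 ± 0.27 (adjusted p = 0.855) with all animals and -0.69 ± 0.28 (adjusted p = 0.213) without the 3 named above, and no gene passed with all animals in edgeR or DESeq2 (0%; 721 genes had an unadjusted p under 0.05). Between ages Hcn2 was lower in the RV of older than of young shams by a log2 difference of -0.86 ± 0.36 (unadjusted p = 0.0256, adjusted p = 0.397; -0.79 within the one library series that held both ages) and in the Spt by -0.44 ± 0.25 (adjusted p = 0.374), and no member passed in any chamber, beside 0.0171% of genes in the LV, 0.103% in the Spt and 0.0852% in the RV.

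The Spt was also compared with the ventricles within the shams, and in the older shams its libraries were of another series than those of the ventricles. Hcn4 in the young shams had 2.86, 6.58 and 18.3 CPM at the lowest, the median and the highest in the Spt against 2.18, 4.70 and 11.5 CPM in the LV, with a log2 difference of 0.91 ± 0.49 (unadjusted p = 0.0695, adjusted p = 0.729; 0.57 to 1.35 when single animals were left out). The first library series, low in Hcn4, held LV but no Spt libraries, and without it the difference was 0.64 ± 0.48 (adjusted p = 0.681). In the older shams the Spt minus RV difference was 0.71 ± 0.33 for Hcn2 (unadjusted p = 0.0329, adjusted p = 0.284), 0.70 ± 0.37 for Cacna1g and 0.42 ± 0.25 for Cacna1h. No member passed in these comparisons, where 0.0923% (Spt against LV) and 0.772% (Spt against RV) of genes passed in young shams and 0.805% and 2.39% in older shams.

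The balance within each channel pair was read from the FPKM values. In the LV Cacna1g made up 53.1, 68.6 and 76.5% of the summed Cacna1g and Cacna1h FPKM at the lowest, the median and the highest of AOB-F against 44.8, 45.8 and 48.4% in Sham-LF. These ranges did not overlap, and the same held in the RV of PAB-F (57.4 to 72.0%) against Sham-RF (40.7 to 41.2%) and in the Spt of AOB-F (63.5 to 77.4%) against Sham-LF (46.2 to 57.1%). The shares used the same Cacna1g levels, which did not overlap in these comparisons either. Of single genes, 5.91%, 16.9% and 5.26% had every banded library above every sham there, and the rate for shares of other gene pairs was not computed. In the RV of AOB-F the share was 47.0 to 65.9% against 41.2 to 53.8%, and the overlap came from AOB-F replicate 3, the lowest of its group. Within the HCN pair Hcn4 never made up more than 10.4% of the summed FPKM, in an AOB-F Spt library, and its median share in the shams lay between 1.87% in the LV of Sham-H and 5.11% in the RV of Sham-RF.

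**Figure D4:**
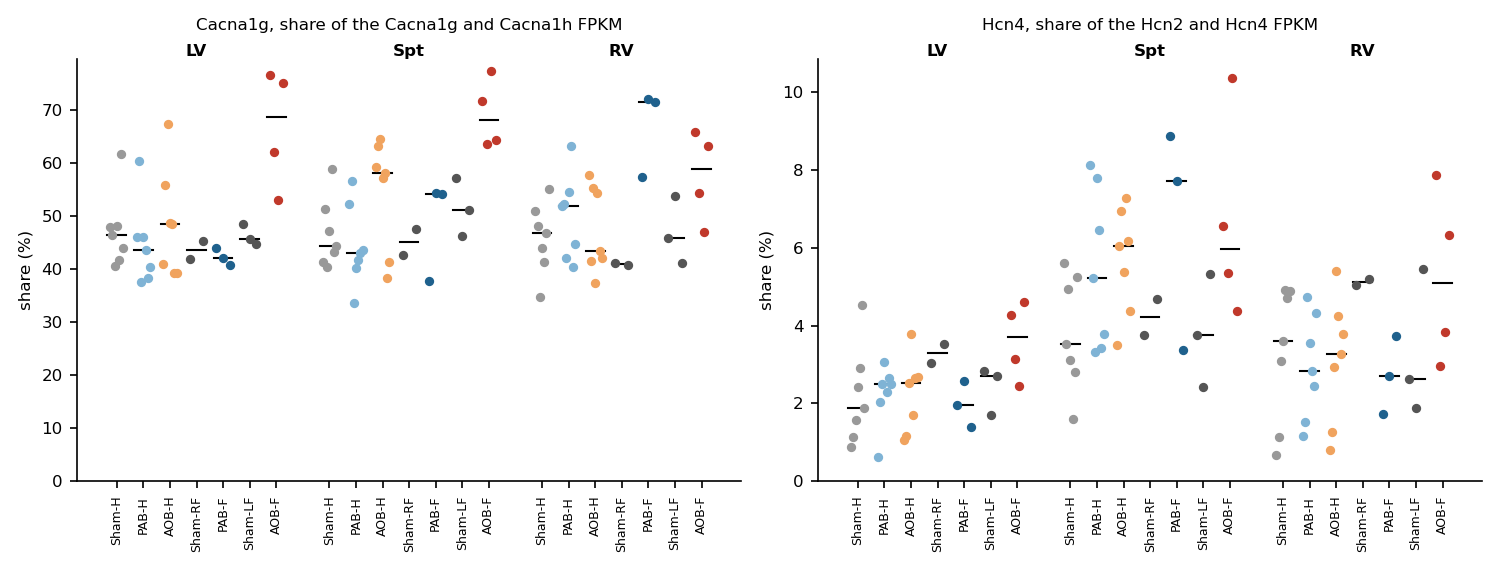
Share of Cacna1g in the summed FPKM of Cacna1g and Cacna1h (left, in percent) and of Hcn4 in that of Hcn2 and Hcn4 (right, in percent), one point per library with a bar at the group median, by chamber and group. The share of Cacna1g lies above that of the shams in the LV and the Spt of AOB-F and in the RV of PAB-F (median 71.5%), while Hcn2 makes up nearly all of the pacemaker channel FPKM throughout.

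Other genes of the same channels gave no call in the comparisons of banding against sham. Of 13 listed calcium channel subunits (among them Cacna1c, the L-type pore, Cacnb2, its main beta subunit, and Cacna2d1), 10 were tested in the LV and 0 passed in either direction upon AOB; 5 of 10 had a log2 fold change above 0, with a median of -0.0049 against 0.014 over all genes. In the RV upon AOB the median of the 10 was 0.063 against 0.030 over all genes, and in the RV upon PAB it was -0.099 against 0.0013. Cacng6, an auxiliary gamma subunit, had an unadjusted p under 0.05 in 2 failure-stage comparisons, with log2 fold changes of -1.02 ± 0.43 in the RV of PAB-F (adjusted p = 0.545) and -0.71 ± 0.33 in the Spt of AOB-F (adjusted p = 0.376). In the Spt of PAB-F, Cacna1d, another L-type pore (1.10 ± 0.44), and Cacna2d2 (1.22 ± 0.52) had an unadjusted p under 0.05, each with an adjusted p of 0.816. Of the listed HCN family genes and partners, Hcn3 and Pex5l, whose product TRIP8b binds HCN channels, were too low to test, and 0 of the 3 tested (Kcne2, Cav3 and Alg10) passed in banding against sham. Between chambers of shams, Cacna1d was higher in the RV than in the LV of older animals (1.40 ± 0.40, adjusted p = 0.025) and Kcne2 was lower in the Spt than in the RV of young ones (-1.115 ± 0.23, adjusted p = 0.00502).

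Of the regulators linked to these channel genes, 0 of the 12 tested passed in each of the failure-stage comparisons. The list held Rest, a repressor of fetal cardiac genes that include Hcn2, Hcn4 and Cacna1h, its partners Rcor1 and Sin3a, and activators such as Mef2a, Mef2d, Gata4 and Nkx2-5. Its median log2 fold change was 0.089 in the LV, 0.0060 in the Spt and 0.36 in the RV of AOB-F, and 0.14 in the RV of PAB-F. In the RV of AOB-F, Sin3a (0.42 ± 0.12, adjusted p = 0.328) and Gata4 (0.40 ± 0.18, adjusted p = 0.367) had an unadjusted p under 0.05, and in the RV of PAB-F Egr1, an early response gene, had -1.51 ± 0.70 (adjusted p = 0.585), beside -1.51 ± 0.69 in the LV and -1.555 ± 0.56 in the Spt of the same animals (adjusted p = 1 and 0.816).

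Of the fetal and hypertrophy genes 1 of 7 passed in the LV of AOB-F: Nppa rose with a log2 fold change of 3.73 ± 0.93 (adjusted p = 0.0472). The median over the 7 genes (Nppa, Nppb, Myh7, Acta1, Tnni1, Ankrd1 and Myl4) was 1.20 against 0.014 over all genes, and 5 of 7 had an unadjusted p under 0.05. In the Spt of AOB-F Nppa had 3.58 ± 0.83 (adjusted p = 0.0554) and in the RV of PAB-F it had 6.23 ± 2.36 (adjusted p = 0.524), without passing. The list medians were 0.61 in the Spt, 1.35 in the RV of AOB-F and 2.24 in the RV of PAB-F, against -0.010, 0.030 and 0.0013 over all genes.

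Genes with the most similar pattern of mean log2 CPM over the 21 groups were sought among 10849 expressed genes, as a description. For Cacna1g they were Xirp2, an actin-binding protein of the intercalated disc (Pearson's r = 0.96), Synm, the intermediate filament protein synemin (r = 0.96), and Tgm2, a transglutaminase (r = 0.96). For Hcn2 they were Fez2, Wsb2 and Setd8, the last a histone H4 lysine methyltransferase (r = 0.98, 0.97 and 0.97). For Hcn4 they were Sphkap, an anchoring protein of protein kinase A (r = 0.91), Supt6h (r = 0.86) and Nedd1 (r = 0.86), and for Cacna1h they were Slc9a3 (r = 0.86), Rfx5 (r = 0.85) and Baz2a (r = 0.85). The 21 group means shared animals across chambers and controls across groups.

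Once group means were removed, the members varied together to different degrees over the 33 libraries of a chamber. Hcn2 and Hcn4 were the closest pair in the Spt, with r = 0.56 in the LV, 0.78 in the Spt and 0.72 in the RV. Cacna1h and Hcn4 had 0.58, 0.55 and 0.69, and Cacna1g and Cacna1h had 0.54, 0.41 and 0.72. Cacna1g and Hcn2 had -0.14 in the LV, 0.23 in the Spt and 0.56 in the RV. These values describe libraries that shared series and depth, and those of each chamber contain the split of the AOB-F animals.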

How the data were processed

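Whole-heart LV, Spt and RV of 33 rats were sequenced as 99 libraries. From poly(A) RNA, directional single-end libraries were made; reads were trimmed with Trim Galore, aligned with STAR to the Rnor6.0 genome and assigned to UCSC genes with featureCounts by the authors. The strand setting was not given in the sources used here. The authors deposited raw counts, a signal of counts divided by DESeq2 size factors, and FPKM values for the same libraries. The signal columns were not used. The raw counts were tested with edgeR 4.0.16 (R 4.3.3): TMM, filterByExpr, 1 quasi-likelihood fit per chamber over the 7 conditions and 1 fit of all 99 libraries for comparisons between chambers, with Benjamini-Hochberg adjustment over all genes tested and a threshold of 0.05. FPKM values served only to compare levels between genes. DESeq2 1.42.0 was an alternative.

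The fit was tested on simulated data for AOB-F minus Sham-LF in the LV: of 100 genes changed by 2 on the log2 scale, 88% were called, and of those changed by 1, 67.3% (98 genes). Of 11400 unchanged genes 10 (0.0877%) were called. All simulated AOB-F libraries shared the same change, so the rates need not hold for genes such as Cacna1g, in which the AOB-F animals were split. Groups and replicate numbers came from the labels; replicates were separate animals, and no 2 libraries had identical counts. For 1 library (Sham-LF replicate 1, RV) the description spelled the operation differently from the title, which was followed. The 4 members and all gene lists were chosen with earlier results of these data known. Named genes were the members, the 3 genes nearest to each in pattern (leaving out unnamed loci), and listed genes past the adjusted threshold at the failure stage; Cacng6, Cacna1d, Cacna2d2, Kcne2, Cntn2, Tubb3, Sin3a, Gata4, Egr1 and the values of Nppa in comparisons where it did not pass were named after their values were seen. Mef2c was not analysed here, and some other listed genes are not reported here. Depth was 12057180 to 24197244 counts.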

Additional observations from a re-analysis of the deposited data

Results flagged for a closer look

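Each member was examined in the 48 sets of 4 to 7 libraries (member, group and chamber) for a library far from the rest by Dixon's test, which chance alone passes in about 1 of 20 sets, and 4 libraries stood out. In the LV of Sham-H, replicate 6 had 22.5 CPM of Cacna1g, with the next library at 10.3 CPM; it is one of the 3 animals whose LV and RV ran in the opposite direction. In the LV of AOB-H, replicate 3 had 21.7 CPM of Cacna1g, with the next at 11.4 CPM. In the LV of AOB-F, replicate 1 had 21.9 CPM of Hcn4, with the next at 10.9 CPM. In the RV of Sham-H, replicate 7 had 13.9 CPM of Cacna1g, with the next at 9.12 CPM.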

How the results depend on the processing

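Of 39 values with their alternatives, 0 changed sign. The Cacna1g call in the LV of AOB-F (log2 fold change 2.04) was lost with the replicate number as a block (1.87, adjusted p = 0.0859), within the one library series (2.04, adjusted p = 0.0646), in a fit of the 2 groups alone (2.04, adjusted p = 0.344) and without 5 of the 7 single animals (1.69 to 2.32). Cacna1g in the Spt of AOB-F was gained with DESeq2's size factors (1.58), DESeq2's Wald test (1.59), no filter (1.59), the replicate block (1.61, adjusted p = 0.0277), the study's thresholds of unadjusted p, fold and mean count (1.56), and without AOB-F replicate 2 or 4 (range of the leave-one-out values 1.20 to 1.81). Cacna1g in the RV of AOB-F was gained with all 99 libraries (2.34), DESeq2's Wald test (2.33), the series covariate (2.34), the study's thresholds (2.34) and without AOB-F replicate 2 or 3 (1.91 to 2.64). Cacna1h there was gained with all 99 libraries (1.42), the series covariate (1.42) and the study's thresholds (1.42). Hcn2 in the RV of PAB-F passed the study's thresholds (1.60), and Hcn4 in the Spt of PAB-F passed in the 2 groups alone (1.27, adjusted p = 0.0352). Hcn2, RV minus LV in older shams, was lost without 4 of 5 single animals (-1.45 to -0.92), and Hcn2 in the Spt, older minus young shams, passed without Sham-LF replicate 3 (-0.77 to -0.24). The causes were not tested. Same-numbered AOB-F and Sham-LF libraries had correlations of -0.29 to 0.14. Those of the compensated groups and Sham-H had -0.19 to 0.76, with 13 of 21 (AOB-H) and 15 of 21 (PAB-H) over 0.1. The highest, 0.515 to 0.762, were those of replicates 1 and 2 in the LV and the RV, whose libraries were all of the first series. The main fits held neither the series nor a block, and fits with the series as a covariate or the replicate number as a block were alternatives. A lone sham left after leaving out one Sham-RF was assumed to vary like the other groups. The other 69 values, all with an unadjusted p of 0.1 or more, were never called under an alternative, and 32 changed sign. The numbers of genes called ranged from 0 to 636 (98 as reported) for AOB-F in the LV, 0 to 234 (27) in the Spt, 0 to 76 (0) in the RV, 0 to 36 (0) for PAB-F in the RV and 0 to 792 (0) in the Spt, 0 to 961 (2) and 0 to 754 (12) for older minus young shams in the LV and the Spt, and 4 to 2090 (719) for RV minus LV in older shams. Leaving out the first library series and the series as a covariate, both chosen after seeing the data, changed no call of a member between chambers.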
